A study of Mus musculus with 16 samples.

Results

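The genes described here are 8 complement genes measured in RAW264.7 cells given prostate cancer vesicles, the osteoclast signal RANKL, or both. They are the 3 chains of C1q (C1qa, C1qb and C1qc), the central component C3, the alternative pathway factors Cfb and Cfp, and the anaphylatoxin receptors C3ar1 and C5ar1. They were chosen by name, and all 8 were found among the 20490 genes of the deposited table. RAW264.7 is a macrophage line from mouse that serves as a precursor of osteoclasts, the cells that resorb bone, and PC3M is a metastatic human prostate cancer line whose extracellular vesicles (EV) were given to it. After 12 h of attachment, cells received EV at 30 µg/mL with RANKL (a GST fusion of the mouse protein) at 10 ng/mL, EV alone, RANKL alone, or phosphate-buffered saline (PBS), for 48 h or 72 h. Each of the 8 groups has 2 libraries, 16 in all. All groups are the same cell line. Nothing in the labels says whether the 2 libraries of a group are separate cultures, so the p-values cover the spread between these samples alone, and that spread may be technical.

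Complement is a cascade of plasma and cell-derived proteins that marks targets for removal. C1q recognises antibody complexes and dying cells and starts the classical pathway, while factor B (Cfb) and properdin (Cfp) drive and stabilise the alternative pathway. All routes cleave C3, and the small fragments C3a and C5a act on cells through C3AR1 and C5AR1. Macrophages are a main source of C1q and carry both receptors, and C3 has been linked to osteoclast formation in mouse marrow cultures.

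Values are RPKM, reads relative to transcript length and library size, recovered from the deposited log2(RPKM + 1) values, and changes are differences on that log2 scale, which understates changes of genes near or below 1 RPKM. An estimated 18.4 M to 20.0 M reads lie behind each library. All 8 listed macrophage markers were detected, and their summed level was 2284 to 2692 RPKM with EV+RANKL, 5789 to 7114 with EV, 3087 to 3122 with RANKL and 7273 to 7823 with PBS at 48 h, with Lyz2 the most abundant. The 8 osteoclast markers summed to 490 to 634 RPKM with EV+RANKL, 83.7 to 92.4 with EV, 280 to 298 with RANKL and 17.5 to 19.2 with PBS at 48 h. At 72 h the macrophage sum was 2051 to 2529 RPKM with EV+RANKL, 5866 to 6063 with EV, 2500 to 3192 with RANKL and 5695 to 6543 with PBS. Most of each sum is Lyz2 and Cd68. With RANKL against PBS at 72 h, the means of Lyz2, Cd68, Fcgr1 and Itgam were lower. Those of Adgre1, Csf1r, Ptprc and Spi1 were higher. The osteoclast sum at 72 h was 1096 to 1603 RPKM with EV+RANKL, 97.0 to 126 with EV, 455 to 835 with RANKL and 18.6 to 19.4 with PBS. Of 4 hepatocyte markers, 0 were in the table, and listed epithelial and lymphocyte markers summed to at most 0.0499 and 0.143 RPKM in any library. The share of ribosomal protein genes in the summed RPKM was 11.1% to 11.5% in the 4 libraries with EV at 72 h and in RANKL replicate 2 of that time, against 8.23% to 9.84% in the other 11 libraries. The share of mitochondrially encoded genes was 21.8% to 24.3% in the libraries with RANKL and 19.3% to 21.2% in those without it at 48 h, and 24.2% to 26.9% with RANKL and 19.7% to 22.7% without it at 72 h, with no overlap at either time. What part these markers and shares had in the results below was not tested.

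RANKL lowered the C1q chains and both anaphylatoxin receptors, and EV alone lowered the C1q chains at 48 h. The limma test ran on the 10365 genes that reached 1 RPKM in no fewer than 2 libraries, with Benjamini-Hochberg adjustment over all of them, and a gene was called at an adjusted p under 0.05. Of the 8 members 7 passed this filter, and Cfb did not. The C1q chains passed only through their PBS libraries, so their counts and adjusted p-values in this fit are a description, and each of their calls is given beside the fit with no filter, over the 19934 genes detected in any library. At 48 h, 5 members were lower with RANKL than with PBS, namely C1qa, C1qb, C1qc, C3ar1 and C5ar1, while 8.29% of all tested genes were called lower. At 72 h these 5 were again lower with RANKL, beside 9.13% of all tested genes, and of the chains C1qb and C1qc were also called with no filter. EV alone lowered the 3 C1q chains at 48 h, beside 0.685% of all tested genes, and at 72 h it lowered 1 member, C1qb, beside 7.83% of all tested genes. With no filter the 3 chains were called with RANKL and with EV at 48 h, and no chain with EV at 72 h. Of the 19934 genes of that fit, 1334 were called in either direction with RANKL and 69 with EV at 48 h. At 72 h these counts were 1565 with RANKL and 1062 with EV. The EV and the RANKL comparisons share their PBS libraries.

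RANKL added to EV lowered 2 members at 48 h, C3ar1 and C5ar1, beside 5.58% of all tested genes, and 3 at 72 h, C3, C3ar1 and C5ar1, beside 12.9% of all tested genes. Set directly against RANKL, EV cultures were higher in 2 members at 48 h, C3ar1 and C5ar1 (4.44% of all tested genes were called higher), and in 1 at 72 h, C3ar1 (11.3%). EV added to RANKL changed none of the 7 tested members at an adjusted p under 0.05 in limma. By that adjusted level 0.434% of all tested genes were called at 48 h and 1.83% at 72 h. At an unadjusted p under 0.05 there was 1 tested member at 48 h and there were 2 at 72 h. No share of all tested genes at an unadjusted p is given. Counts at that level, here and below, are therefore a description.

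**Figure D1:**
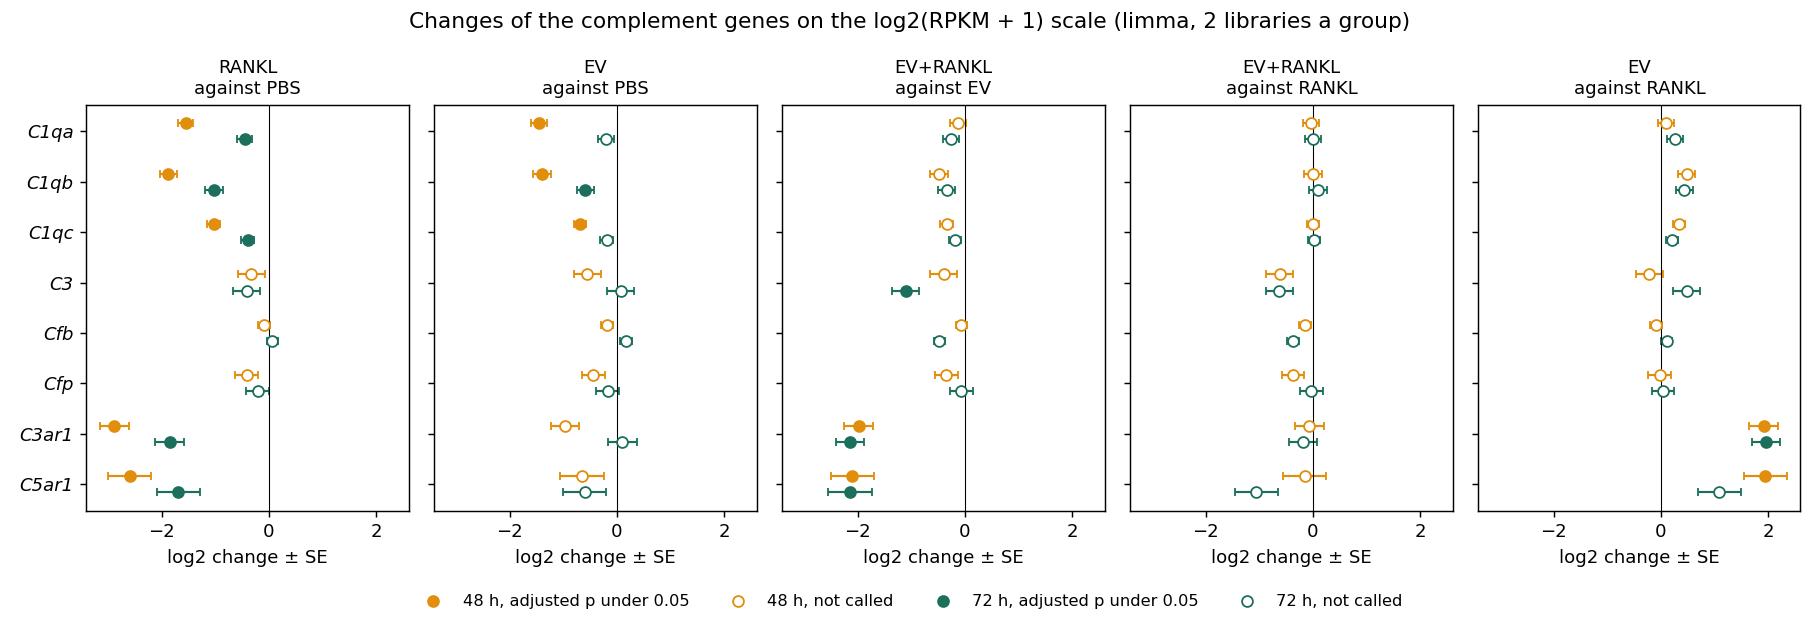
Difference on the log2(RPKM + 1) scale (x axis, ± SE from limma) for each of the 8 genes (rows) in 5 comparisons (panels), at 48 h in orange and at 72 h in green, each from 2 libraries a group. Filled points have an adjusted p under 0.05, and Cfb, which did not pass the filter, is drawn open with values from the fit with no filter. The C1q chains and both receptors lie left of 0 in RANKL against PBS, the receptors also in EV+RANKL against EV, and the points of EV+RANKL against RANKL are all open.

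The 3 C1q chains build the recognition molecule of the classical pathway and are encoded side by side on mouse chromosome 4, in the order C1qb, C1qc, C1qa with no other gene of the RefSeq gene table between them. The stretches before the starts of C1qb and C1qc are shown because these genes moved together. They come from RefSeq on GRCm38.p6, lie on the minus strand and are written 5′ to 3′ in the direction of the gene. C1qb is shown over the 250 bases before its start, chr4:136886201-136886450, and C1qc over chr4:136893066-136893164, the part of its window that lies before every annotated transcript. Capitals mark a match to GAGGAAG, a core recognised by PU.1, a main macrophage transcription factor, on the opposite strand.

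C1qb: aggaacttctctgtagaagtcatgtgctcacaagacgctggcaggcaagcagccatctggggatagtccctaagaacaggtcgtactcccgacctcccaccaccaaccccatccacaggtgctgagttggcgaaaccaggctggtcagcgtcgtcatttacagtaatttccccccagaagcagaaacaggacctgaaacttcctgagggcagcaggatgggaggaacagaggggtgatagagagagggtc
C1qc: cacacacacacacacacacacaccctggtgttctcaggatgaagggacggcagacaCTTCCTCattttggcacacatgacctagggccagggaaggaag

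In C1qc the match lies 194 to 188 bases before the start, and in C1qb none of the searched motifs was found. The motifs were GAGGAAG for PU.1, GAAANNGAA for the interferon response, GGGANTTCC for NF-kB and TGANTCA for AP-1, on both strands of the 250 bases before each start. Of 32851 promoters, 10.6% hold the PU.1 letters, 7.13% the interferon letters, 1.43% the NF-kB letters and 6.75% the AP-1 letters. Of the 8 members, 6 were in the promoter table, and C1qa and Cfb were not among them.

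All 3 C1q chains were low, and PBS cultures at 48 h held the highest levels. C1qa had 0.0481 and 0 RPKM with EV+RANKL, 0.0503 and 0.205 with EV, 0.103 and 0 with RANKL, and 2.57 and 1.66 with PBS at 48 h. C1qb had 0 and 0 RPKM with EV+RANKL, 0.626 and 0.196 with EV, 0 and 0 with RANKL, and 3.10 and 2.29 with PBS at 48 h. C1qc had 0.0259 and 0.0264 RPKM with EV+RANKL, 0.325 and 0.277 with EV, 0.0557 and 0 with RANKL, and 1.14 and 1.06 with PBS at 48 h. Both PBS libraries lay above every library of the other groups for each chain. EV libraries lay between PBS and RANKL for C1qb and C1qc, with no overlap on either side, and overlapped the RANKL libraries for C1qa.

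These levels rest on few reads, which could be recovered as whole numbers because 1 read has a fixed value for each gene and library. Over both libraries at 48 h, the 3 chains together had 3 reads with EV+RANKL, 44 with EV, 4 with RANKL and 270 with PBS. C1qb had 0 reads in RANKL cultures, against 109 in PBS cultures, so it was at least 37.7-fold lower with RANKL, taking 3 reads over the group as the limit that a count of 0 allows. C1qa had 2 reads with RANKL, against 82 with PBS, a ratio of 0.0235 with an exact 95% interval of 0.0028 to 0.0877. C1qc had 2 reads with RANKL, against 79 with PBS, a ratio of 0.0244 with an interval of 0.0029 to 0.0911. These intervals and limits cover counting error only.

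**Figure D2:**
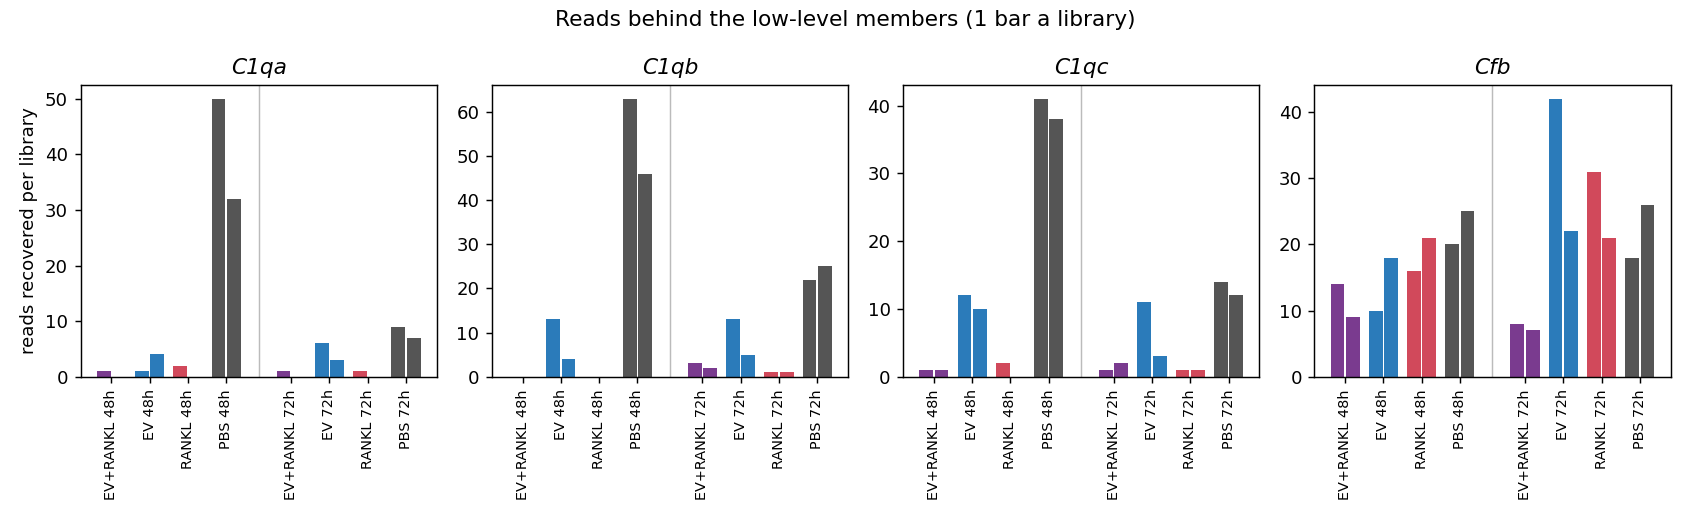
Reads recovered per library (y axis, 1 bar a library) for the 4 members of low level, by group. PBS libraries at 48 h have the tallest bars for the 3 C1q chains, which have at most 3 reads in any library that received RANKL, while Cfb has 7 to 42 reads throughout.

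On the log2 scale, the change of C1qb with RANKL against PBS at 48 h was -1.88 ± 0.16 (SE, adjusted p = 1.99e-05, and 0.000284 with no filter). C1qa changed by -1.55 ± 0.15 (adjusted p = 3.81e-05, and 0.000263 with no filter) and C1qc by -1.03 ± 0.12 (adjusted p = 0.000111, and 8.66e-05 with no filter). In bulk samples fewer cells of a type and less RNA per cell cannot be told apart. With EV alone against PBS at 48 h, C1qa changed by -1.46 ± 0.15 (adjusted p = 0.000352), C1qb by -1.40 ± 0.16 (adjusted p = 0.000936) and C1qc by -0.69 ± 0.12 (adjusted p = 0.0123). With no filter these 3 adjusted p-values were 0.00149 for C1qa, 0.00698 for C1qb and 0.00376 for C1qc. The reads of the 3 chains together were 0.16 times the PBS level with EV, with an interval of 0.114 to 0.221. The call of C1qc with EV was lost when any 1 of the 4 libraries was left out, with an adjusted p of up to 0.0981, and with a pseudocount of 0.1 RPKM.

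With RANKL present, EV made no measurable difference to the chains at this depth, where both groups had 0 to 2 reads per chain and library at 48 h. The change of C1qb in EV+RANKL against EV at 48 h was -0.48 ± 0.16 (adjusted p = 0.0906), that of C1qc was -0.34 ± 0.12 (adjusted p = 0.0898) and that of C1qa was -0.14 ± 0.15 (adjusted p = 0.642). With no filter C1qc was called there (adjusted p = 0.0260), and in EV against RANKL (adjusted p = 0.0344). Of the 19934 genes of that fit, 824 and 545 were called in these 2 comparisons. C1qb had 0 reads with EV+RANKL, against 17 with EV, at least 5.9-fold lower by the same limit. The interaction of EV and RANKL at 48 h was 1.42 ± 0.21 for C1qa (adjusted p = 0.0749) and 1.40 ± 0.23 for C1qb (adjusted p = 0.108). RANKL alone already left the chains at 0 to 2 reads a library, so EV added to RANKL could hardly lower them further. For the chains this interaction therefore mainly restates the change with EV alone, with its sign reversed. It cannot show how EV and RANKL combine. No member passed the interaction test in limma, where 0.00965% of all tested genes were called. C1qa, C1qb, C1qc and C3ar1 had an unadjusted p under 0.05, which is a description. The interaction of C1qa was called without PBS replicate 2 at 48 h, with an adjusted p of 0.0247, and with no filter, with an adjusted p of 0.0396.

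At 72 h the chains were lower in PBS cultures than at 48 h, which left less room for a fall on the log2 scale. Their log2 changes with RANKL and with EV against PBS were smaller, although no test of that difference between times passed with all libraries in the fit. C1qb had 0.140 and 0.0958 RPKM with EV+RANKL, 0.619 and 0.243 with EV, 0.0476 and 0.0462 with RANKL, and 1.10 and 1.16 with PBS. C1qa had 0.0490 and 0 RPKM with EV+RANKL, 0.299 and 0.152 with EV, 0.0498 and 0 with RANKL, and 0.471 and 0.339 with PBS. C1qc had 0.0264 and 0.0540 RPKM with EV+RANKL, 0.295 and 0.0820 with EV, 0.0268 and 0.0260 with RANKL, and 0.395 and 0.313 with PBS. For each chain the PBS libraries were again the highest, the EV libraries came next and every library with RANKL lay below them. The 3 chains together had 9 reads with EV+RANKL, 41 with EV, 5 with RANKL and 89 with PBS over both libraries.

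C1qb changed by -1.02 ± 0.16 with RANKL against PBS at 72 h (adjusted p = 0.00132). C1qa changed by -0.45 ± 0.15 (adjusted p = 0.0486) and C1qc by -0.40 ± 0.12 (adjusted p = 0.0311), and both calls were lost when any 1 of the 4 libraries was left out, with adjusted p-values of up to 0.202 and 0.140. With no filter the adjusted p was 0.00592 for C1qb, 0.0616 for C1qa and 0.00977 for C1qc. With EV against PBS at 72 h, C1qb changed by -0.59 ± 0.16 (adjusted p = 0.0296). That call too was lost without any 1 of the 4 libraries, with an adjusted p of up to 0.173, and with no filter (adjusted p = 0.0580). C1qa changed by -0.20 ± 0.15 (adjusted p = 0.347) and C1qc by -0.19 ± 0.12 (adjusted p = 0.246) with EV.

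In PBS cultures, 2 members were lower at 72 h than at 48 h, C1qa and C1qc, beside 0.502% of all tested genes called lower. C1qa changed by -1.14 ± 0.15 (adjusted p = 0.00621) and C1qc by -0.63 ± 0.12 (adjusted p = 0.0329), while C1qb changed by -0.79 ± 0.16 (adjusted p = 0.0530). The call of C1qa was lost without PBS replicate 1 at 72 h (adjusted p = 0.0816), and that of C1qc without any 1 of the 4 libraries (adjusted p of up to 0.273). With no filter both were called, C1qa at an adjusted p of 0.0105 and C1qc at 0.0103, beside 37 of 19934 genes. With a pseudocount of 0.1 RPKM or with the PBS libraries alone neither was called. The test of whether the RANKL effect differed between 72 h and 48 h gave 1.10 ± 0.21 for C1qa (adjusted p = 0.122). The same test of the EV effect gave 1.26 ± 0.21 for C1qa (adjusted p = 0.0712). With RANKL, C1qa had 2 reads at 48 h and 1 at 72 h, so the test of the RANKL effect mainly restates the fall in PBS cultures. The test of the EV effect does so too, as C1qa changed by 0.12 ± 0.15 between times with EV, on 5 and 9 reads. As a ratio of reads to PBS, C1qa with RANKL was 0.0235 at 48 h and 0.0609 at 72 h. The exact 95% interval at 72 h, 0.00145 to 0.392, holds the ratio of 48 h. In each of these 2 tests no member passed in limma, where 0.0289% of all tested genes were called for RANKL and 0.0193% for EV. C1qa, C1qb, C1qc and C3ar1 had an unadjusted p under 0.05 in both, which is a description. Without EV replicate 2 at 72 h, 5 members passed the test of the EV effect. Without RANKL replicate 1 at 72 h, C1qa passed the test of the RANKL effect (adjusted p = 0.0372).

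**Figure D3:**
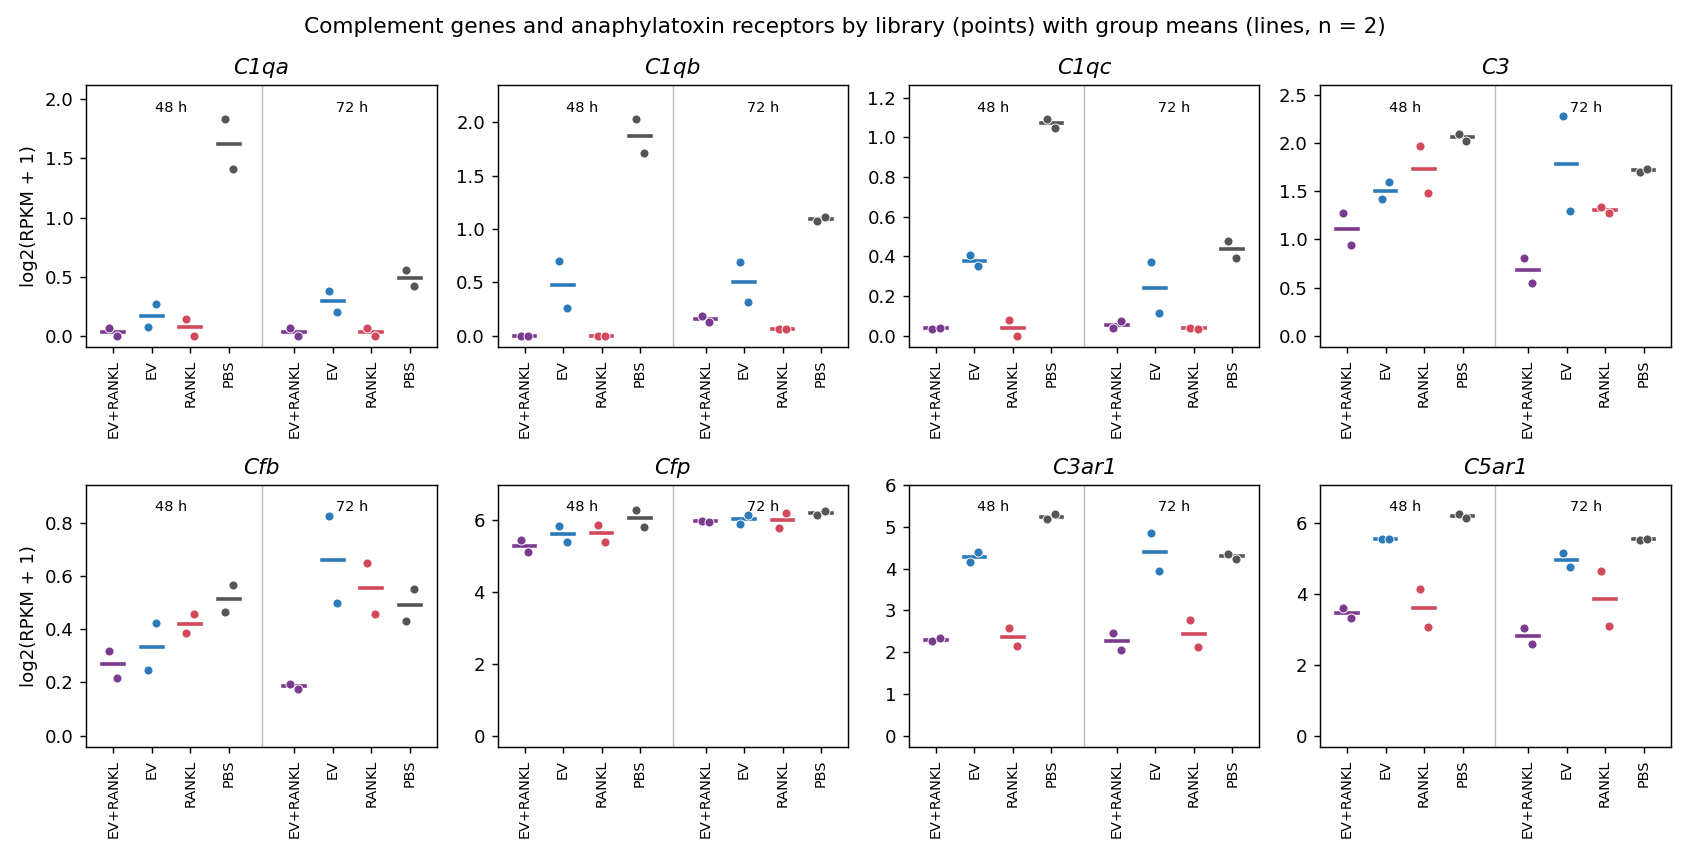
Deposited log2(RPKM + 1) value (y axis) of each of the 8 genes in every library (points), with group means as lines (n = 2), at 48 h left and at 72 h right in each panel. For the C1q chains both PBS points at 48 h stand above all other points, for C3ar1 and C5ar1 the groups with RANKL lie below those without it, and the Cfp groups of a time overlap, apart from EV+RANKL and PBS.

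C3 is the protein on which all complement routes converge, and it is the source of C3a and of the fragments that coat targets. C3 had 1.42 and 0.923 RPKM with EV+RANKL, 1.67 and 2.03 with EV, 2.92 and 1.80 with RANKL, and 3.28 and 3.05 with PBS at 48 h. At 72 h it had 0.753 and 0.466 RPKM with EV+RANKL, 3.86 and 1.45 with EV, 1.52 and 1.42 with RANKL, and 2.26 and 2.32 with PBS. EV+RANKL cultures were the lowest group at both times, at 1.17 ± 0.35 RPKM at 48 h and 0.609 ± 0.202 RPKM at 72 h (SD, n = 2), and overlapped no other group of their time. EV cultures at 72 h held both the highest C3 value of their time and a value within the range of the others.

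The change of C3 in EV+RANKL against EV at 72 h was -1.11 ± 0.25 (adjusted p = 0.00698). Without EV replicate 1 it was -0.61, and without EV+RANKL replicate 2 the call was lost (adjusted p = 0.0594). Against RANKL alone, EV+RANKL gave -0.62 ± 0.25 at 48 h (adjusted p = 0.488) and -0.62 ± 0.25 at 72 h (adjusted p = 0.185), with no overlap between the libraries of both groups at either time. RANKL against PBS gave -0.33 ± 0.25 at 48 h (adjusted p = 0.411) and -0.41 ± 0.25 at 72 h (adjusted p = 0.283). EV against PBS gave -0.55 ± 0.25 at 48 h (adjusted p = 0.435) and 0.07 ± 0.25 at 72 h (adjusted p = 0.863).

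Factor B, the protease of the alternative pathway C3 convertase, stayed under 1 RPKM in every library. Cfb had 0.248 and 0.163 RPKM with EV+RANKL, 0.185 and 0.340 with EV, 0.305 and 0.372 with RANKL, and 0.378 and 0.479 with PBS at 48 h. At 72 h it had 0.144 and 0.129 RPKM with EV+RANKL, 0.770 and 0.411 with EV, 0.569 and 0.373 with RANKL, and 0.347 and 0.464 with PBS. Like C3, it was lowest with EV+RANKL at 72 h, where both libraries lay below all others of that time. In the fit with no filter, EV+RANKL against EV at 72 h gave -0.48 ± 0.11 (adjusted p = 0.0197), and EV+RANKL against RANKL gave -0.37 ± 0.11 (adjusted p = 0.155). The 15 reads of Cfb with EV+RANKL at 72 h stood against 64 with EV, 52 with RANKL and 44 with PBS.

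Properdin, which holds the alternative pathway convertase together, had the highest level of the complement factors described here. Cfp had 42.3 and 33.4 RPKM with EV+RANKL, 56.0 and 41.2 with EV, 57.7 and 41.3 with RANKL, and 77.3 and 55.4 with PBS at 48 h. At 72 h it had 61.5 and 61.2 RPKM with EV+RANKL, 58.7 and 70.2 with EV, 54.1 and 72.2 with RANKL, and 69.7 and 75.3 with PBS. The groups overlapped, apart from EV+RANKL against PBS, whose libraries did not overlap at either time. EV+RANKL against PBS was not among the comparisons tested. None of the treatment comparisons tested passed for Cfp, and RANKL against PBS at 48 h gave -0.42 ± 0.21 (adjusted p = 0.214).

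In EV+RANKL cultures 1 member was higher at 72 h than at 48 h, beside 17.4% of all tested genes, and that member was Cfp, at 0.69 ± 0.21 (adjusted p = 0.0215). The call was lost without the unnumbered EV+RANKL library of 48 h or without either EV+RANKL library of 72 h, with an adjusted p of up to 0.170, and with no filter or with a replicate block. In EV cultures and in RANKL cultures no member differed between 72 h and 48 h in limma, with 0 at an unadjusted p under 0.05 in each, beside 32.3% of all tested genes with EV and 6.03% with RANKL.

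C3ar1 and C5ar1 encode the receptors of the anaphylatoxins C3a and C5a, both coupled to G proteins and carried by myeloid cells. The stretch before the start of C3ar1 is shown because this gene had the largest change of the 8 members with RANKL at 48 h on the log2(RPKM + 1) scale, although the C1q chains fell further as a ratio to PBS. It lies at chr6:122856162-122856407 on the minus strand of GRCm38.p6, from RefSeq, and is written in the direction of the gene. Shown are the 246 of 250 bases that lie before every annotated transcript. Positions count from the RefSeq start, not from the last base shown. Capitals mark a match to TGANTCA, the letters recognised by AP-1, a factor family that RANKL activates, 22 to 16 bases before the start.

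C3ar1: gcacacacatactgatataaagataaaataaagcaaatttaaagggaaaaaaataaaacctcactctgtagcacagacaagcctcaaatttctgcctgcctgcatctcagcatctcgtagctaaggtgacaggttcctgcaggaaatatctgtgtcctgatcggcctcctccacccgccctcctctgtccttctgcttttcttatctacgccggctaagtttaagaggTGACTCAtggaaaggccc

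In C5ar1, on chromosome 7, the opposite strand matched the interferon response letters 66 to 58 bases before the start. This match lies outside the part of the window that is before every annotated transcript of C5ar1. Neither receptor matched the NF-kB or PU.1 letters. C3, on chromosome 17, and Cfp, on chromosome X, matched none of the searched motifs.

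Both receptors were lower in every culture with RANKL than in any without it, at both times. C3ar1 had 3.80 and 4.04 RPKM with EV+RANKL, 16.8 and 20.1 with EV, 5.00 and 3.41 with RANKL, and 35.3 and 38.5 with PBS at 48 h. C5ar1 had 11.1 and 9.01 RPKM with EV+RANKL, 45.8 and 46.5 with EV, 16.7 and 7.47 with RANKL, and 75.8 and 70.2 with PBS at 48 h. At 48 h the order of levels was PBS, EV and then both groups with RANKL for each receptor, and EV+RANKL and RANKL overlapped.

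RANKL brought C3ar1 to 4.21 ± 1.12 RPKM, against 36.9 ± 2.24 with PBS (SD, n = 2 each), 0.114 times the PBS mean, a log2 change of -2.88 ± 0.27 (SE, adjusted p = 3.18e-05). C5ar1 was 12.1 ± 6.50 RPKM with RANKL and 73.0 ± 3.97 with PBS, 0.165 times the PBS mean, a log2 change of -2.60 ± 0.40 (adjusted p = 0.000889). Beside these changes, the macrophage markers called at 48 h were 1 higher and 5 lower of 8 with RANKL, and the osteoclast markers 6 higher of 8. Of the 10365 tested genes, 1530 were called in either direction in this comparison, and 8.29% of all tested genes were called lower. S100a8, the only granulocyte marker tested, was also lower with RANKL, and the granulocyte marker sum was 0.152 to 0.159 RPKM with RANKL and 0.847 to 1.64 with PBS. S100a8 reached 1 RPKM, the level of the filter, only in libraries without RANKL, so its call is a description. Acp5, Mmp9, Ocstamp and Oscar reached that level in no PBS library, so the same holds for their calls. The part of the listed markers in the receptor changes was not tested.

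With EV alone at 48 h, C3ar1 was 0.501 times and C5ar1 0.633 times the PBS mean, and the EV and PBS libraries did not overlap for either receptor. Neither change passed the test over all genes, with -0.96 ± 0.27 for C3ar1 (adjusted p = 0.114) and -0.65 ± 0.40 for C5ar1 (adjusted p = 0.650). RANKL on top of EV gave -1.98 ± 0.27 for C3ar1 (adjusted p = 0.000674) and -2.10 ± 0.40 for C5ar1 (adjusted p = 0.00523) against EV. EV against RANKL gave 1.92 ± 0.27 for C3ar1 (adjusted p = 0.00123) and 1.95 ± 0.40 for C5ar1 (adjusted p = 0.0117). The call of C5ar1 in EV against RANKL was lost without EV replicate 1, EV replicate 2 or RANKL replicate 2 at 48 h, with an adjusted p of up to 0.137, and in the fit with no filter. EV added to RANKL gave -0.07 ± 0.27 for C3ar1 and -0.15 ± 0.40 for C5ar1, with an adjusted p of 0.999 for each.

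At 72 h, C3ar1 had 4.52 and 3.15 RPKM with EV+RANKL, 27.8 and 14.4 with EV, 5.77 and 3.37 with RANKL, and 19.5 and 17.8 with PBS. C5ar1 had 7.17 and 5.03 RPKM with EV+RANKL, 34.4 and 26.0 with EV, 23.9 and 7.49 with RANKL, and 45.5 and 46.4 with PBS. The EV libraries lay on both sides of the PBS libraries for C3ar1 and below them for C5ar1. The RANKL libraries differed from each other in both receptors, replicate 1 being the higher.

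C3ar1 changed by -1.85 ± 0.27 with RANKL against PBS at 72 h (adjusted p = 0.000725), to 4.57 ± 1.69 RPKM with RANKL, against 18.7 ± 1.17 with PBS. C5ar1 changed by -1.69 ± 0.40 (adjusted p = 0.0121), to 15.7 ± 11.6 RPKM with RANKL, against 45.9 ± 0.66 with PBS. Beside these changes, the macrophage markers called with RANKL at 72 h were 1 higher and 2 lower of 8. Of all tested genes 9.73% were called higher and 9.13% lower. Without RANKL replicate 2 the change of C5ar1 was -0.91, and its call was lost without that library or without either PBS library, with an adjusted p of up to 0.124, and with no filter. EV alone gave 0.10 ± 0.27 for C3ar1 (adjusted p = 0.804) and -0.60 ± 0.40 for C5ar1 (adjusted p = 0.296) against PBS.

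Against EV, EV+RANKL at 72 h gave -2.14 ± 0.27 for C3ar1 (adjusted p = 0.000147) and -2.14 ± 0.40 for C5ar1 (adjusted p = 0.00230), and both calls held without any 1 of the 4 libraries. EV against RANKL gave 1.96 ± 0.27 for C3ar1 (adjusted p = 0.000686) and 1.09 ± 0.40 for C5ar1 (adjusted p = 0.0806). Against RANKL, EV+RANKL gave -1.05 ± 0.40 for C5ar1 (adjusted p = 0.167), with values of -1.83 without RANKL replicate 2 and -0.27 without RANKL replicate 1. The first of these passed the test (adjusted p = 0.00470). The interaction of EV and RANKL at 72 h was -0.29 ± 0.38 for C3ar1 (adjusted p = 0.848) and -0.45 ± 0.57 for C5ar1 (adjusted p = 0.844). No member passed that test in limma, where 0.00965% of all tested genes were called. Of the tested members C1qb alone had an unadjusted p under 0.05, which is a description.

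PBS cultures also held less of both receptors at 72 h than at 48 h, at 0.506 times the 48 h mean for C3ar1 and 0.630 times for C5ar1, with no overlap between times. Neither passed the test, with -0.95 ± 0.27 for C3ar1 (adjusted p = 0.155) and -0.66 ± 0.40 for C5ar1 (adjusted p = 0.605). The change of the RANKL effect between times was 1.03 ± 0.38 for C3ar1 (adjusted p = 0.340) and 0.91 ± 0.57 for C5ar1 (adjusted p = 0.553). The change of the EV effect was 1.07 ± 0.38 for C3ar1 (adjusted p = 0.175). Between times C3ar1 changed by 0.08 ± 0.27 with RANKL and 0.12 ± 0.27 with EV. Its changes of both effects therefore mainly restate the fall in PBS cultures.

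The genes most like each member over the 16 libraries were named by Pearson's r on the log2 scale, as a description. C1qa and C1qb followed each other (r = 0.929), as did C1qc with C1qb (r = 0.965) and with C1qa (r = 0.952), and Mmp8, a collagenase of myeloid cells, stood at 0.931 to 0.963 with all 3 chains. Rnf128 also reached 0.965 with C1qc. C3ar1 was closest to App, Alpk1 and Dhrs9 (0.975 each), and C5ar1 to Fyb (0.973), Ctsl (0.969) and Arrb2 (0.962), the last an adaptor that binds activated receptors of this kind. C3 was closest to Dock2 (0.912), Gda (0.897) and Slc25a24 (0.891), and Cfp to Eps8 (0.868), Tapbp (0.860) and Ccdc93 (0.835). These libraries share treatments, so a gene that falls with RANKL resembles any other that does. Within the 8 libraries without RANKL, C3ar1 and C5ar1 had r = 0.740 (Spearman's rho 0.667), and within the 8 with RANKL r = 0.873 (rho 0.714). Within the libraries without RANKL the C1q chains had r = 0.923 to 0.950 among themselves (rho 0.762 to 0.905), and within the 8 with RANKL, where each has at most 3 reads, r was -0.076 for C1qa with C1qb, 0.219 for C1qb with C1qc and 0.437 for C1qa with C1qc.

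Of 49 other complement genes listed, 33 were in the table and 12 passed the filter, 3 of the initiation list, 2 regulators, 7 receptors or binding proteins and 0 of the terminal pathway. Masp2 reached 1 RPKM in no PBS library, Itgax only in libraries with RANKL and Cd93 only in libraries without it. The calls of Masp2, Itgax and Cd93 below are therefore a description. RANKL lowered 4 of the 12 at 48 h, with a median change over the 12 of -0.20, against 0.06 over all tested genes, of which 8.29% were called lower. C1ra, which encodes the C1r protease that binds C1q, had 1.15 ± 0.16 RPKM with RANKL and 4.50 ± 0.57 RPKM with PBS, a change of -1.35 ± 0.13 (adjusted p = 3.18e-05). C1ra has a near-identical copy, C1rb, and how reads were split between them is not given, so its values are uncertain. Lrp1, which encodes a clearance receptor, changed by -0.64 ± 0.14 (adjusted p = 0.00962), and Itgam, which encodes the alpha chain of complement receptor 3, by -0.78 ± 0.22 (adjusted p = 0.0294). Cd93, which encodes a myeloid surface protein once described as a C1q receptor, changed by -0.96 ± 0.28 (adjusted p = 0.0342).

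EV alone changed none of the 12 at 48 h in limma, with 2 at an unadjusted p under 0.05. Of the 10365 tested genes, 134 were called in that comparison. RANKL on top of EV at 48 h lowered 1 gene, C1ra (-1.02 ± 0.13, adjusted p = 0.000377), beside 5.58% of all tested genes. It raised 1 gene, Cd59a, an inhibitor of the membrane attack complex (0.55 ± 0.10, adjusted p = 0.00345), beside 3.96% of all tested genes called higher. EV added to RANKL changed none of the 12 at either time in limma, with 1 at an unadjusted p under 0.05 at 48 h and 4 at 72 h. Over all tested genes 0.434% were called there at 48 h and 1.83% at 72 h.

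At 72 h, RANKL against PBS lowered 3 of the 12 and raised 1, where 9.13% of all tested genes were called lower and 9.73% higher. C1ra changed by -1.36 ± 0.13 (adjusted p = 3.47e-05), Cd93 by -1.17 ± 0.28 (adjusted p = 0.0119) and Calr, which encodes the chaperone calreticulin, by -0.57 ± 0.17 (adjusted p = 0.0335), while Itgax, the alpha chain of complement receptor 4, changed by 0.89 ± 0.21 (adjusted p = 0.0121). EV against PBS raised Masp2, a protease of the lectin pathway (0.58 ± 0.18, adjusted p = 0.0447), and Fcna, a ficolin that recognises sugars (0.69 ± 0.22, adjusted p = 0.0455). These 2 rises stood beside 10.4% of all tested genes called higher. EV lowered Calr (-0.89 ± 0.17, adjusted p = 0.0109), and C1qbp, which encodes a mitochondrial protein that can bind C1q (-0.41 ± 0.10, adjusted p = 0.0185), beside 7.83% called lower. The fit reported called 1895 genes for EV against PBS at 72 h, and the 72 h libraries alone 39. How the calls of Masp2, Fcna, Calr and C1qbp fared in the alternative fits is not given here. RANKL on top of EV raised 3 of the 12, beside 9.05% of all tested genes, and lowered 3, beside 12.9%. The 4 of smallest adjusted p were C1ra at -1.59 ± 0.13 (adjusted p = 7.54e-06), Itgax at 1.34 ± 0.21 (adjusted p = 0.000793), Cd59a at 0.52 ± 0.10 (adjusted p = 0.00233) and Itgam at -0.71 ± 0.22 (adjusted p = 0.0337).

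EV against RANKL was higher in C1ra at 48 h (1.19 ± 0.13, adjusted p = 0.000202) and at 72 h (1.31 ± 0.13, adjusted p = 0.000152). Over all tested genes 4.44% were called higher at 48 h and 11.3% at 72 h. At 72 h EV cultures were lower than RANKL cultures in C1qbp (-0.42 ± 0.10, adjusted p = 0.0128) and Itgax (-0.69 ± 0.21, adjusted p = 0.0405), where 7.29% of all tested genes were called lower. Between 72 h and 48 h, none of the 12 was called with PBS or with RANKL in limma, with 1 and 2 at an unadjusted p under 0.05. Of the 10365 tested genes, 67 were called with PBS and 625 with RANKL. With EV, Calr (-0.90 ± 0.17, adjusted p = 0.00435) and C1qbp (-0.45 ± 0.10, adjusted p = 0.00727) were lower at 72 h, and Fcna (0.81 ± 0.22, adjusted p = 0.0159) and Itgam (0.72 ± 0.22, adjusted p = 0.0256) were higher. These calls stood beside 32.3% of all tested genes called in either direction. With EV+RANKL 4 of the 12 were higher and 2 lower at 72 h, where 17.4% of all tested genes were called higher and 21.5% lower. The 4 of smallest adjusted p were Itgax (1.17 ± 0.21, adjusted p = 0.00202), Lrp1 (0.77 ± 0.14, adjusted p = 0.00224), Fcna (1.08 ± 0.22, adjusted p = 0.00323) and C1qbp (-0.42 ± 0.10, adjusted p = 0.00658).

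**Figure D4:**
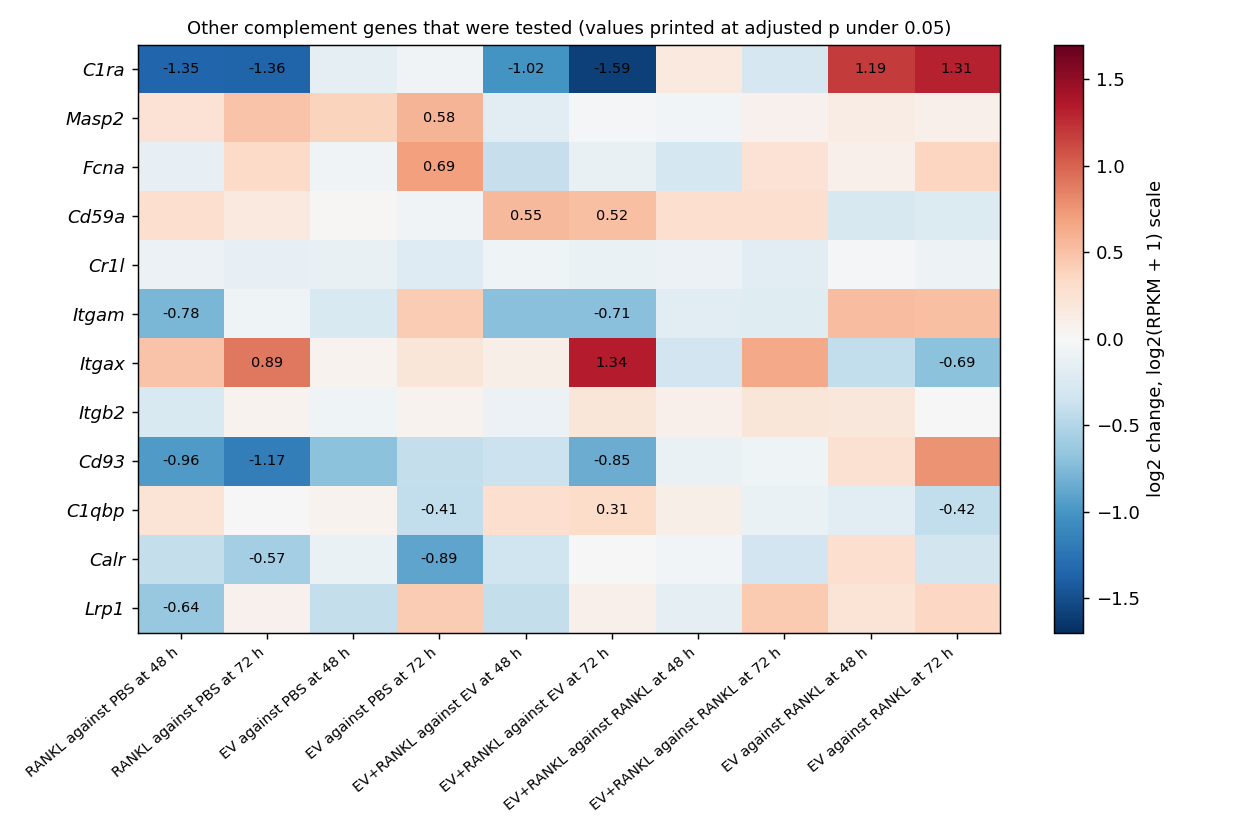
Difference on the log2(RPKM + 1) scale (colour) of the 12 other complement genes that passed the filter (rows) in 10 comparisons (columns), with the value printed where the adjusted p is under 0.05. C1ra is lower in the columns of RANKL against PBS at both times, and the 2 columns of EV+RANKL against RANKL hold no printed value.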

How the data were processed

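Per the labels' protocols, total RNA of 16 samples went into TruSeq mRNA libraries. The submitters' processing notes list FastQC, HISAT2 and Partek, and the human builds GRCh38 and hg38, although gene names are mouse symbols. The mouse build, annotation, use of strand and counting of overlapping genes were not given in the sources used here. The authors' deposited table was read as log2(RPKM + 1), which no source states and which was inferred from the values: those of C1qa, C1qb, C1qc and Cfb were whole multiples, within 0.05, of the value of 1 read in every library. Depth was estimated from single-exon genes. The column of 1 EV+RANKL library at 48 h lacks the letter for RANKL and gives only its group by its plus sign, so it carries no number here.

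With limma 3.58.1 in R 4.3.3, all 16 libraries entered 1 fit of 8 group means with a variance trend. The fit was run on simulated data with normal noise of 1 spread per gene, shared by all groups. That check does not cover groups of unequal spread or values of few reads. The 8 members are named in every comparison. Other complement genes are named where called, at most the 4 of smallest adjusted p, apart from 1 gene that is not reported here, and for likeness the 3 genes of highest r. The members and lists were chosen with earlier results of these data known. Alternatives were another pseudocount, no filter, a filter of 5 RPKM, quantile normalisation, no variance trend, the libraries of a time point or of the compared groups alone, a replicate block and each library left out.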

Additional observations from a re-analysis of the deposited data

How the results depend on the processing

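A filter of 5 RPKM keeps only C3ar1, C5ar1 and Cfp of the members, so members called fell to 2 with RANKL against PBS at 48 h and at 72 h (5 in the fit reported at each), and to 0 with EV against PBS at 48 h (3) and 72 h (1) and in 72 h against 48 h with PBS (2). With no filter they were 3 with RANKL against PBS at 72 h, 0 with EV against PBS at 72 h, 1 in the interaction at 48 h (0 reported) and 0 in 72 h against 48 h with EV+RANKL (1). A pseudocount of 0.1 RPKM gave 0 with EV against PBS at 72 h, 2 with EV against RANKL at 72 h (1) and 0 in 72 h against 48 h with PBS. Quantile normalisation and the fit with no variance trend each gave 1 in the interaction at 48 h. With the time point or the compared groups alone they were 3 with RANKL against PBS at 72 h, 0 with EV against PBS at 72 h, 0 in 72 h against 48 h with PBS and 3 with EV+RANKL. Single calls also changed where such a count moved less or not at all. With no filter C1qc was gained in EV+RANKL against EV and in EV against RANKL at 48 h, and C5ar1 lost in EV against RANKL at 48 h and, with C1qa, in RANKL against PBS at 72 h. With no variance trend C1qc was gained in the same comparisons at 48 h, and C1qb in 72 h against 48 h with PBS. A pseudocount of 0.1 RPKM lost C1qc in EV against PBS at 48 h, and gained C1qb in EV+RANKL against EV at 48 h and in EV against RANKL at both times. The time point or groups alone gained C3ar1 in EV against PBS and C1qc in EV+RANKL against EV and in EV against RANKL at 48 h. Apart from the filter of 5 RPKM, the cause was not tested.

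With 1 library left out, where a lone library is assumed to vary like the other groups, members called ranged from 5 to 5 for RANKL against PBS at 48 h, 2 to 2 for EV against PBS at 48 h, 2 to 2 for EV+RANKL against EV at 48 h, 1 to 2 for EV against RANKL at 48 h and 0 to 1 for the interaction at 48 h. They ranged from 2 to 3 for RANKL against PBS at 72 h, 0 to 0 for EV against PBS at 72 h, 0 to 1 for EV+RANKL against RANKL at 72 h, 2 to 3 for EV+RANKL against EV at 72 h and 1 to 3 for EV against RANKL at 72 h. For 72 h against 48 h they ranged from 0 to 1 with PBS, 0 to 1 with EV and 0 to 1 with EV+RANKL, and for the change between times from 0 to 1 for the RANKL effect and 0 to 5 for the EV effect. Counts over all genes moved more. At 48 h they ranged from 717 to 908 for RANKL against PBS (1530 in the fit reported), 34 to 59 for EV against PBS (134), 363 to 587 for EV+RANKL against EV (988), 198 to 329 for EV against RANKL (720) and 2 to 11 for EV+RANKL against RANKL (45). At 72 h they ranged from 738 to 2854 for RANKL against PBS (1954), 36 to 2918 for EV against PBS (1895), 1245 to 2282 for EV+RANKL against EV (2278), 831 to 2689 for EV against RANKL (1924) and 5 to 1815 for EV+RANKL against RANKL (190). For 72 h against 48 h they ranged from 3 to 242 with PBS (67), 649 to 4113 with EV (3347), 0 to 1739 with RANKL (625) and 1423 to 3231 with EV+RANKL (4027). With the 48 h libraries alone 3147 genes were called for RANKL and 506 for EV against PBS, and with the 72 h libraries alone 830 and 39.

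The replicate block, fitted without the unnumbered library, gave 0 members called in 72 h against 48 h with EV+RANKL and 2 with EV against RANKL at 72 h, and gained C1qb in 72 h against 48 h with PBS. Deviations of same-numbered libraries correlated at -0.039 to 0.529, and the labels do not say that a number marks a shared batch. No called value changed sign under any alternative, and of 1412 alternative values of the members 59 changed sign, all of them uncalled. C1q and Cfb levels rest on at most 63 reads per library, so changes below a few reads were not detectable.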

Other observations

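C5ar2, the second receptor of C5a, is on the list of other complement genes but did not reach the filter, and it was picked here after its values were seen. It had 0.197 and 0.172 RPKM with EV+RANKL, 0.382 and 0.465 with EV, 0.106 and 0.154 with RANKL, and 0.645 and 0.881 with PBS at 48 h. In the fit with no filter its change with RANKL against PBS at 48 h was -0.64 ± 0.07 on the log2 scale (SE, limma adjusted p = 0.00113), and with EV against RANKL it was 0.33 ± 0.07 (adjusted p = 0.0418). At 72 h it had 0.329 and 0.161 RPKM with EV+RANKL, 0.480 and 0.475 with EV, 0.233 and 0.254 with RANKL, and 0.336 and 0.283 with PBS. Both EV libraries lay above both PBS libraries at 72 h, and below them at 48 h.

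Vsig4, a macrophage receptor for C3 fragments, was listed at 0 in 15 of 16 libraries, with 0.0698 RPKM in EV replicate 1 at 72 h. Cd55, which encodes a brake on the C3 convertases, was listed at 0 in all 16 libraries.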
